A study of Homo sapiens with 8 samples.

Results

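The HMOX1 and APOL interval is a stretch of 1.3 Mb on chromosome 22, from 35.6 to 36.9 Mb on hg19, that holds HMOX1, MCM5, RASD2, MB and the apolipoprotein L genes APOL6, APOL5, APOL3, APOL4, APOL2 and APOL1. It was chosen by the change in SON signal between PT2399 and DMSO in the same tables that are described here, so its changes are given as a description, with no test of their own. Its members are the genomic windows that lie wholly inside it, 109 of the 278316 windows of 100 kb and 226 of the 556938 windows of 50 kb. All 109 and all 226 reached a log2 concentration of 2 or more under PT2399 and under DMSO, which is what measured means here, against 90286 and 178559 windows in the whole series.

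The cells were 786-O, a human clear cell renal carcinoma line that lacks functional VHL protein and therefore keeps HIF-2α stable under normal oxygen. They received 2 µM PT2399, an inhibitor of HIF-2α, or DMSO vehicle for 3 h, and the series holds 2 SON pulldowns and 2 inputs for each treatment, all from this single line. For 4 of the 8 libraries the title conflicts with the field for antibody or treatment, and titles were followed. The direction of every change rests on the deposited columns being named treatment and control. The authors deposited 1 mean per treatment and window, on a log2 concentration scale, with a p-value and an FDR, so no spread between libraries can be given and the depth of each library is unknown. Changes are PT2399 minus DMSO, and a window is called lower where the change is negative and the deposited FDR is at most 0.01.

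SON is a scaffold protein of nuclear speckles, the bodies in which splicing factors collect, and SON TSA-seq marks DNA by how near it lies to them. Genes near speckles are as a rule in gene-rich, actively transcribed chromatin. The assay averages over all cells of a culture, so a small shift in every cell and a larger shift in some cells cannot be told apart. HMOX1 encodes haem oxygenase, which breaks haem down to biliverdin, iron and carbon monoxide and is induced by oxidative stress. The apolipoprotein L genes arose by duplication next to each other, and APOL1 encodes the secreted member that travels on high-density lipoprotein and kills trypanosomes.

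As deposited, SON signal was lower with PT2399 in every 100 kb window of the interval, while 1 of the 109 lay above 0 after the median of all measured windows was taken off (recentring). The median change over its 100 kb windows was -0.35 on the log2 scale (quartiles -0.43 and -0.24), which leaves 78.5% of the DMSO level, and every one of the 109 windows lay below 0, from -0.71 to -0.11. Of these 109 windows, 56 (51.4%) were called lower and 0 higher in the authors' deposited tables, beside 1.55% of all measured 100 kb windows called lower. At 50 kb the median change was -0.34, 221 of 226 windows lay below 0, and 28 windows (12.4%) were called lower and 0 higher in the authors' deposited tables, beside 0.357% of all measured 50 kb windows. Since the interval was chosen on this contrast, nothing is read from these shares. The windows overlap each other, and the 9 sets at each size cover the same libraries, so these counts are not counts of independent measurements.

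SON signal in the interval was above the genome-wide median and was highest around and just beyond APOL1. With PT2399 the 100 kb windows ran from 9.20 to 11.54 with a median of 10.12, and with DMSO from 9.38 to 11.82 with a median of 10.56. The median of all measured 100 kb windows was 8.50 with PT2399 and 8.60 with DMSO. The window at 36630001 to 36730000, which holds the APOL1 position, had the highest DMSO level of the interval, with 11.49 in PT2399 and 11.82 in DMSO. It ranked 566th by DMSO level among the 90286 measured windows, within the top 0.627%, and 11th on chromosome 22. The lowest DMSO level was that of the first window of the interval, with 9.20 in PT2399 and 9.38 in DMSO, still within the top 35.3% of measured windows.

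**Figure D1:**
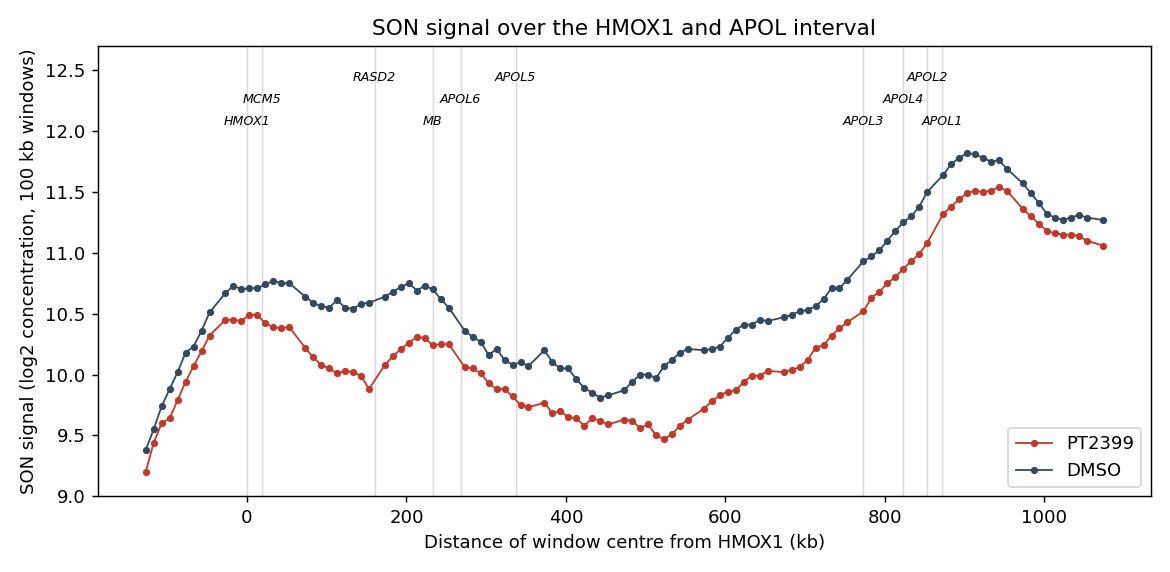
SON signal (log2 concentration) in 100 kb windows with PT2399 (red) and DMSO (dark blue), against the distance of the window centre from HMOX1 in kb; each point is the authors' mean over libraries and grey lines mark gene positions. The PT2399 curve lies below the DMSO curve at every window, and both peak near APOL1.

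The gap between the treatments was not even along the interval. As the profile of the change shows, the called 100 kb windows began at HMOX1 and the fall was deepest around RASD2. It shrank between MB and APOL5, deepened again between APOL5 and APOL3, held a steady size across APOL3 to APOL1 and was smaller beyond APOL1. The 56 windows called lower in the authors' deposited tables merged into 3 regions that together cover 930 kb. The first, 35750001 to 36070000, spans HMOX1, MCM5, RASD2, MB and APOL6. The second is a single window at 36100001 to 36200000 that holds APOL5, with an FDR of 0.00973 in the authors' deposited table, just under the limit of 0.01. The third, 36250001 to 36760000, holds 34 called windows and spans APOL3, APOL4, APOL2 and APOL1.

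**Figure D2:**
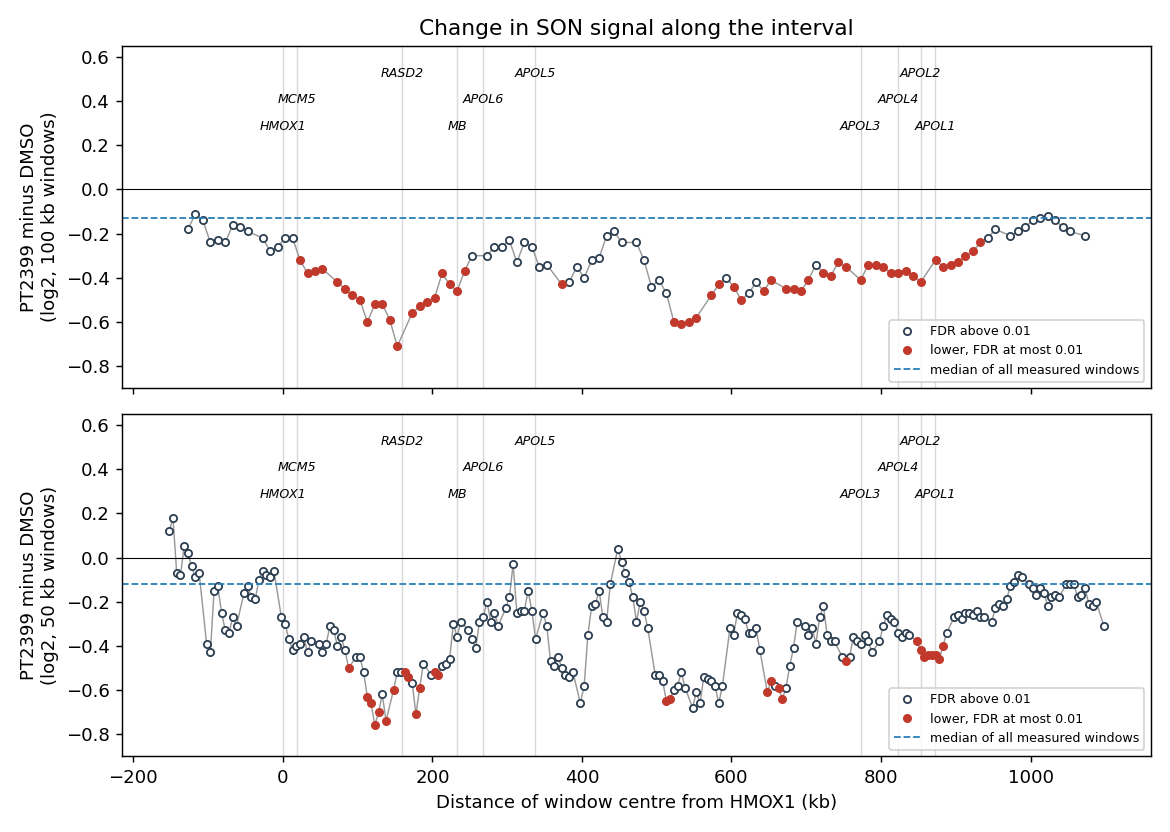
Change in SON signal (PT2399 minus DMSO, log2) in 100 kb windows (top) and 50 kb windows (bottom) against the distance of the window centre from HMOX1 in kb; filled red points have a deposited FDR of at most 0.01 and the dashed line is the median of all measured windows, -0.13 and -0.12. The deepest points lie next to RASD2, at -0.71 and -0.76, and a second trough lies between APOL5 and APOL3.

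HMOX1 lies at 35.777 Mb, where the called 100 kb windows begin. The 12 windows of 100 kb centred before it had changes of -0.28 to -0.11 and the 28 of 50 kb had -0.43 to 0.18, and 0 were called lower at either size in the authors' deposited tables. At both sizes some of these windows reach far enough right to hold HMOX1, among them the 100 kb window at -0.28. The 100 kb windows wholly to the left of HMOX1 had changes of -0.24 to -0.11. The 100 kb window centred nearest to it had 10.49 with PT2399 and 10.71 with DMSO, a change of -0.22 (FDR 0.0802 by the authors' deposited table), and was not called. Of the 9 windows of 100 kb that hold the position, 3 were called lower in the authors' deposited tables, all of them starting at 35750001 or beyond. The 50 kb windows show the changes around the gene more closely. Those that start at 35730001, 35735001 and 35740001 had changes of -0.08, -0.09 and -0.06 (0.04, 0.03 and 0.06 after recentring), while the one that starts at 35765001, with 9.45 in PT2399 and 9.87 in DMSO, had one of -0.42 (FDR 0.027 by the authors' deposited table). All 9 of these 50 kb windows hold HMOX1, so the small changes come from windows that reach to its left and the larger ones from windows that reach to its right. None of the 9 was called at 50 kb, and at an FDR of 0.027 or more they give no call at the gene itself. Farther left, the 50 kb windows that start at 35650001 and 35655001 had changes of -0.39 and -0.43. They were not called either (FDR 0.29 and 0.296 by the authors' deposited tables), and the values form no single step at HMOX1.

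MCM5, a subunit of the replicative DNA helicase, lies 19 kb from HMOX1 and shares 8 of its 9 windows of 100 kb. Its centred 100 kb window, at 35750001 to 35850000, had 10.42 with PT2399 and 10.74 with DMSO, which was called lower (change -0.32, FDR 0.00753 by the authors' deposited table). Over the 9 windows the change ran from -0.38 to -0.22, and 4 were called. At 50 kb the 9 MCM5 windows had changes of -0.43 to -0.27, with a median of -0.38, and 0 were called, the lowest FDR being 0.027 in the authors' deposited table. The values of MCM5 and HMOX1 are therefore largely the same measurement at 100 kb and cannot rank the genes.

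RASD2, which encodes the small Ras-like GTPase Rhes known from the striatum, lies at 35.937 Mb and had the deepest fall of the 10 genes. The window centred nearest to it, at 35880001 to 35980000, had 9.88 with PT2399 and 10.59 with DMSO, a change of -0.71 that leaves 61.1% of the DMSO level. By FDR this window (2.25e-09 by the authors' deposited table) ranked 17th among the measured 100 kb windows that were lower with PT2399. All 9 windows of 100 kb at RASD2 were called lower in the authors' deposited tables, with changes from -0.71 to -0.49. At 50 kb, 6 of 9 were called, with a median change of -0.57. The largest fall of any 50 kb window in the interval lay just before it, at 35875001 to 35925000, with 8.67 in PT2399 and 9.43 in DMSO (FDR 0.00122 by the authors' deposited table). The 15 windows of 100 kb centred from HMOX1 to RASD2 lay between 9.88 and 10.49 with PT2399, and between 10.54 and 10.77 with DMSO. At that size the range was narrower with DMSO. The 50 kb windows dipped with both treatments. From the one that starts at 35765001 to that at 35880001, levels fell from 9.87 to 9.39 with DMSO. With PT2399 they fell from 9.45 to 8.69.

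MB encodes myoglobin, the oxygen-binding protein of muscle, and lies at 36.01 Mb, 73 kb beyond RASD2. Its centred 100 kb window had 10.24 with PT2399 and 10.70 with DMSO, a change of -0.46 (FDR 0.000195 by the authors' deposited table). Of its 9 windows of 100 kb, 7 were called lower in the authors' deposited tables, and the 2 that reach farthest from RASD2 were not, each with a change of -0.30. At 50 kb, where MB shares 0 windows with RASD2, 1 of 9 was called, and the median change was -0.37. That called window, at 35960001 to 36010000, ends at the MB position itself and had an FDR of 0.00862 in the authors' deposited table.

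The start regions of RASD2 and MB are shown because they are the ones among the 10 genes with a matching entry, and because these neighbours had the largest median changes at 100 kb, though at 50 kb the MB median was smaller than those of MCM5, APOL3, APOL2 and APOL1. They are the RefSeq promoters on GRCh38.p14, a later build than the hg19 of the windows, and each runs 5′ to 3′ on the gene's strand, from 250 bases before the start to 50 after it. The 2 genes matched 4 entries, RASD2 1 and MB 3 starts, of which the outermost is printed. The core letters of the hypoxia response element, ACGTG and GCGTG, of the E-box, CACGTG, which contains ACGTG, and of the antioxidant response element, TGACNNNGC, were searched on both strands, and matches are in capitals. RASD2 lies at chr22:35532556-35532855 on the plus strand and MB at chr22:35623305-35623604 on the minus strand.
RASD2: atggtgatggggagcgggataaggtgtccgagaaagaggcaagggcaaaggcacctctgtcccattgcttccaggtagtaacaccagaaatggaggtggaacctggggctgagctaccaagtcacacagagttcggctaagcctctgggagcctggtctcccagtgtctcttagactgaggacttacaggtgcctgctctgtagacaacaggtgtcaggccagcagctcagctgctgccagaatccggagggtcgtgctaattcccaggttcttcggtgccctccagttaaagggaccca
MB: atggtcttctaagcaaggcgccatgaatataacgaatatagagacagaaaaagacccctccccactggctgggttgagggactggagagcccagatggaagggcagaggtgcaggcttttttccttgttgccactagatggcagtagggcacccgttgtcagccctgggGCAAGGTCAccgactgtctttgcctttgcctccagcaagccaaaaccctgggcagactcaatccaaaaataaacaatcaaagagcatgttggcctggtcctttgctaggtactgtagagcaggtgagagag

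The RASD2 window held none of these motifs. The printed MB window held 1 match to TGACNNNGC, on the other strand, and none to the others. The entries for the other 2 MB starts held 0 matches to any of the motifs. Over 34796 distinct RefSeq promoters of the same length, 48.4% held ACGTG or GCGTG, 7.2% held CACGTG and 13.3% held TGACNNNGC. A match or its absence in 300 bases describes these letters only.

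APOL6 and APOL5, the members of the family that stand apart from the other 4, lie on the far side of MB, at 36.045 and 36.114 Mb. The centred 100 kb window of APOL6 had 10.06 with PT2399 and 10.36 with DMSO, a change of -0.30 (FDR 0.0673 by the authors' deposited table). Of its 9 windows, 3 were called lower, and these are windows that also hold MB. APOL5 had 9.82 with PT2399 and 10.08 with DMSO in its centred window, a change of -0.26 (FDR 0.132 by the authors' deposited table), and 1 of its 9 windows was called. At 50 kb 0 of 9 windows were called at either gene, with median changes of -0.29 at APOL6 and -0.25 at APOL5 and lowest FDRs of 0.102 and 0.0838 in the authors' deposited tables. These are negative changes of about the same size as at HMOX1, without a call centred on the gene.

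Between APOL5 and APOL3 lie 436 kb in which RefSeq places 1 protein-coding gene, RBFOX2, a regulator of alternative splicing. The 38 windows of 100 kb centred there had a median of 9.74 with PT2399 and 10.20 with DMSO. Their median change was -0.41, and 19 of 38 were called lower in the authors' deposited tables. The stretch is itself uneven. At 50 kb the window at 36150001 to 36200000 had a change of -0.66 (FDR 0.0215 by the authors' deposited table). The one at 36200001 to 36250000, right beside it, had 8.73 with PT2399 and 8.69 with DMSO, a change of 0.04 (FDR 0.953 by the authors' deposited table). From there the change deepened again, to -0.68 at 36300001 to 36350000, where the level was 8.42 with PT2399 and 9.10 with DMSO (FDR 0.0112 by the authors' deposited table). Apart from the window at 36200001, the 50 kb windows above 0 numbered 4, and all lay at the left edge of the interval, before HMOX1, at no more than 0.18.

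APOL3, APOL4, APOL2 and APOL1 lie within 99 kb of each other. The median DMSO level of the 100 kb windows at each gene rose in that order, 10.93, 11.18, 11.38 and 11.64. The 9 windows of 100 kb centred between APOL3 and APOL1 had a median of 10.80 with PT2399 and 11.18 with DMSO. All 9 windows of 100 kb at each of the 4 genes were called lower in the authors' deposited tables. Their median changes were -0.35 at APOL3, -0.38 at APOL4, -0.37 at APOL2 and -0.35 at APOL1. Neighbours share 100 kb windows, 5 of 9 between APOL3 and APOL4, 6 between APOL4 and APOL2 and 7 between APOL2 and APOL1. Like medians therefore follow in part from the overlap. The median implied standard error of a window in the interval was 0.0922. That error is what fold and p-value of a window imply together, and its median was 0.0656 at APOL1 and 0.0956 at RASD2. The window at 36580001 to 36680000, which holds APOL4, APOL2 and APOL1, had 11.08 with PT2399 and 11.50 with DMSO, a change of -0.42 (FDR 1.11e-07 by the authors' deposited table). APOL3 had 10.52 with PT2399 and 10.93 with DMSO in its centred window, a change of -0.41 (FDR 0.000115 by the authors' deposited table).

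At 50 kb the calls in this group gathered at APOL1 and APOL2. APOL1 had 8 of 9 windows called lower in the authors' deposited tables and APOL2 had 6 of 9, while APOL3 had 1 and APOL4 had 0. The 50 kb window with the lowest FDR of the interval holds APOL1, at 36630001 to 36680000, with 10.26 in PT2399 and 10.72 in DMSO, a change of -0.46 (FDR 3.17e-05 by the authors' deposited table). APOL4 is given by the rounded position 36.6 Mb, and the called 50 kb window that starts at 36600001 lies right beside that point without holding it. Median changes at 50 kb were -0.39 at APOL3, -0.34 at APOL4, -0.42 at APOL2 and -0.44 at APOL1. The differences among the 4 genes were not tested, and neighbouring genes share windows, 6 of 9 between APOL2 and APOL1. These shared windows are the 6 called at APOL2, and its windows that do not hold APOL1 were not called.

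**Figure D3:**
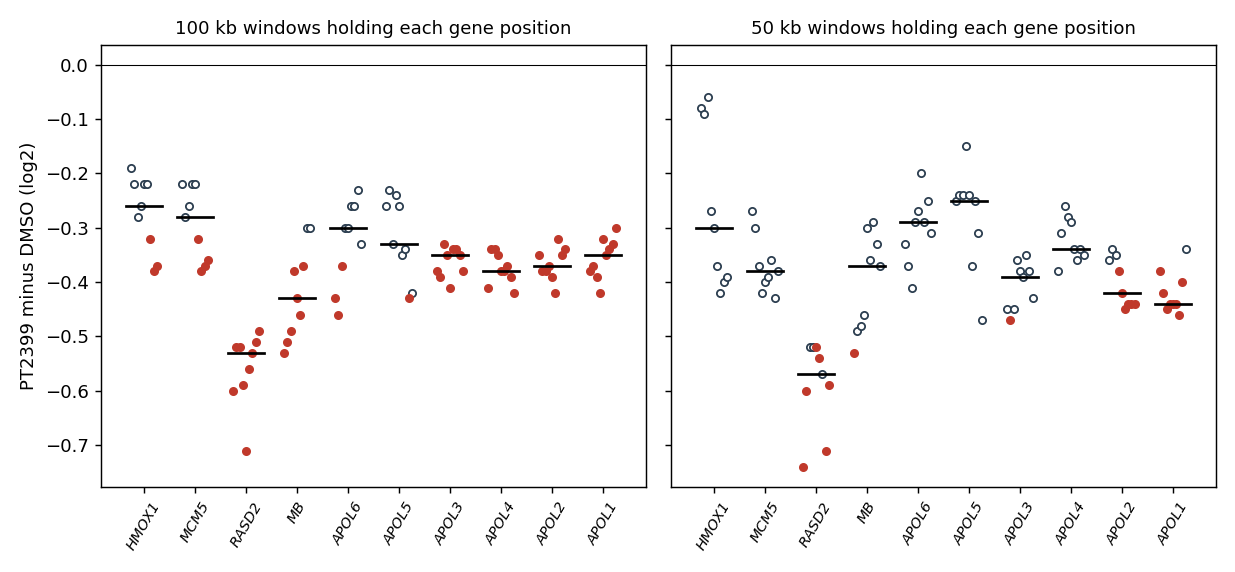
Change in SON signal (PT2399 minus DMSO, log2) in each of the 9 windows that hold a gene's position, at 100 kb (left) and 50 kb (right), with genes in map order; bars are medians, filled red points have a deposited FDR of at most 0.01 and open points do not. RASD2 lies lowest at both sizes, with medians of -0.53 and -0.57. APOL3 to APOL1 look even at 100 kb, where neighbours among them share 5 to 7 of their 9 windows.

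Beyond APOL1 the changes were smaller. The 19 windows of 100 kb centred there had a median of 11.32 with PT2399 and 11.57 with DMSO, and a median change of -0.21, with 7 called lower in the authors' deposited tables. Of those called, only the windows that start at 36650001 and 36660001 no longer hold the APOL1 position, with changes of -0.28 and -0.24. By RefSeq order MYH9, the heavy chain of non-muscle myosin IIA, comes next after APOL1, followed by TXN2, FOXRED2 and EIF3D. At the rim of the interval the last window inside had 11.06 with PT2399 and 11.27 with DMSO, a change of -0.21, and the first one outside had 11.08 with PT2399 and 11.26 with DMSO, a change of -0.18. At the other rim the first window inside had a change of -0.18. The last one before it had 8.86 with PT2399 and 8.97 with DMSO, a change of -0.11. The windows on either side of each limit overlap for most of their length, so their likeness cannot show whether the signal breaks there.

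The interval and the 1 Mb on its left had median changes of much the same size, and the calls differed. The median change was -0.35 inside and -0.33 (quartiles -0.59 and -0.06) in the 73 measured 100 kb windows on the left. Inside, 56 of 109 windows were called lower in the authors' deposited tables, against 0 of 73 on the left, where 6 had an unadjusted p under 0.05. The median implied standard error was 0.0922 inside and 0.349 on the left. The median level on the left was 8.01 with PT2399 and 8.20 with DMSO. Whether the lower level and larger error there account for the missing calls was not tested. The 1 Mb on the right had a median change of -0.26, with 22 of 82 windows called lower, at 10.75 with PT2399 and 10.98 with DMSO. The rest of chromosome 22 had a median change of -0.17 and 3.52% of its 2870 measured windows called lower in the authors' deposited tables. All measured windows in the same range of mean concentration as the interval, 9.29 to 11.67, had a median change of -0.13, and 3.46% of them were called. The interval, which was chosen on this contrast, holds 3.66% of the measured 100 kb windows of chromosome 22 and 35.7% of those called lower. At 50 kb it holds 3.83% of the measured windows and 37.8% of those called lower.

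**Figure D4:**
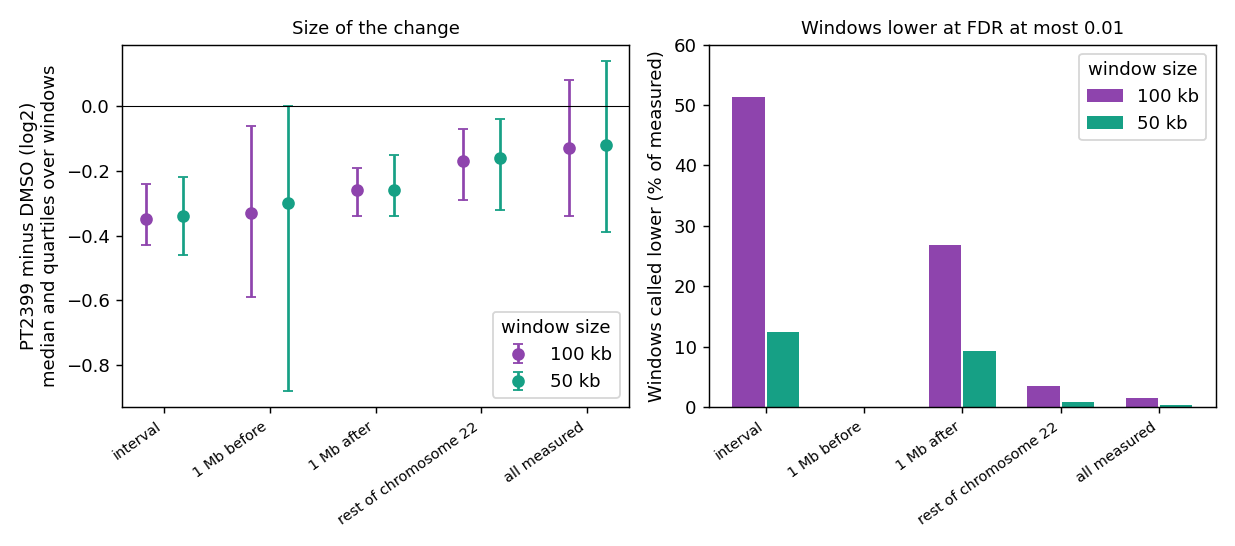
Median change in SON signal with quartiles over windows (PT2399 minus DMSO, log2, left) and percent of measured windows called lower at a deposited FDR of at most 0.01 (right), for the interval, the 1 Mb on each side, the rest of chromosome 22 and all measured windows, at 100 kb (purple) and 50 kb (green). The interval has a median of -0.35 and the 1 Mb before it -0.33, the second with wide quartiles and 0 windows called.

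The whole series shifts in the same direction, with a median change of -0.13 over all measured 100 kb windows. Summed on the linear scale, the signal of the interval with PT2399 was between 79.1% and 79.8% of that with DMSO over the 9 sets of 100 kb windows, against 89.0% to 89.1% for the rest of chromosome 22 and 91.8% to 91.9% for all measured windows. With the median of all measured windows of a set taken off every change (recentring), the interval had a median change of -0.22, with 1 of 109 windows above 0 at 100 kb (35610001 to 35710000, at 0.02) and 23 of 226 at 50 kb, where 5 were above 0 as deposited. Then 9 of its 109 windows were called lower at a Benjamini-Hochberg adjusted p of at most 0.01, beside 0.161% of all measured windows. Of these, 8 hold RASD2, 3 of the 8 also hold MB, and the last is the window at 36580001 that holds APOL4, APOL2 and APOL1. At HMOX1, MCM5, APOL6, APOL5 and APOL3 0 windows were called after recentring, with recentred medians of -0.14, -0.15, -0.17, -0.20 and -0.23. At 50 kb 0 of the 226 windows were called after recentring, beside 0.0403% of all measured windows. Recentred changes below 0 with an unadjusted p under 0.05 numbered 102 of the 226, beside 7376 of all 178559 measured windows. Nothing is read from these counts, since the interval was chosen on this contrast. Whether that genome-wide shift comes from SON signal or from library scaling was not tested.

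All 10 genes were in the gene list that the authors deposited for lower 100 kb windows, which holds 4.29% of protein-coding genes. RASD2, APOL4, APOL2 and APOL1 were also in the 50 kb list, which holds 1.11% of them. Both lists come from windows called lower in the same contrast on which the interval was chosen. At 100 kb each of the 10 genes had at least 1 called window at its position, so nothing is read from this membership. The sources used here do not give how the authors assigned genes, and the lists do not follow the positions used above in every case. APOL4 was listed at 50 kb with 0 of 9 windows called at its position, while MB and APOL3 were not listed there with 1 each. RBFOX2, which lies among called windows between APOL5 and APOL3, was in neither list, and neither were MYH9, TOM1, HMGXB4, TXN2, FOXRED2 and EIF3D. Of the 12 neighbours looked up, CACNG2, IFT27, PVALB and NCF4 were in the 100 kb list, and PVALB was in the 50 kb list.

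Genes that act with these genes, and their relatives, were looked up in the same lists, beside the 4.29% and 1.11% of all protein-coding genes that the lists hold. Of 21 genes of haem handling and the NRF2 antioxidant response other than HMOX1, BLVRA, the biliverdin reductase that acts after haem oxygenase, and SRXN1, which repairs oxidised peroxiredoxins, stood in the 100 kb list deposited by the authors, and 0 in that for 50 kb. HMOX2, NQO1, GCLM, NFE2L2 and KEAP1 were in neither. Of 21 genes of the MCM helicase and its loading other than MCM5, GINS2 was in the 100 kb list. Of the 12 other globins and the 11 other small GTPases looked up, 0 were in either list, and APOLD1, the family member outside the cluster, was in neither. No difference from that background was tested.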

How the data were processed

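SON TSA-seq was measured in 786-O cells, with 2 pulldowns and 2 inputs for each treatment and groups taken from the titles. Tools in the submitters' processing notes are DiffBind, Bowtie2, Picard and bedtools, and the build is hg19. The sources used here do not give how the authors counted, scaled or used the inputs. Log2 concentrations for each treatment and a log2 fold fill the deposited tables, per the file headers. The deposited fold is control minus treatment, so changes were computed as PT2399 minus DMSO, which matched the turned fold to within 0.01. A p-value and an FDR follow for each window, per the file headers. Lists of lower windows and of genes, deposited by the authors, hold no measurement.

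Windows wholly inside the interval were taken from the 100 kb tables (9 sets, shifted by 10 kb) and the 50 kb tables (9 sets, shifted by 5 kb), at a minimum concentration of 2. The deposited lower list held the same 56 and 28 windows. A gene was given the windows that hold its position as stated with the choice of the interval. No count test could be run on group means, so the authors' FDR at a maximum of 0.01 was used. For recentring, a window's standard error was its absolute change over the normal quantile of its p-value (for changes under 0.1 or p of 0.5 or more, the median of its level bin, of 20), and Benjamini-Hochberg adjustment of the resulting two-sided p-values ran within each set over measured windows. The recentring was tried on simulated 100 kb changes, drawn independently with the same implied errors. The planted changes were larger than the median change of the interval. The simulation therefore checks the calculation and does not show that the implied errors hold for these data. Adjacent 50 kb windows summed to the 100 kb value within 0.01 in 218 comparisons. The interval, genes and lists were chosen with earlier results of these data known. Stretches between genes, and single windows away from the gene positions, were chosen after their values were seen. The text names the 10 genes of the interval, and genes of lists on haem and NRF2, the MCM helicase, globins, small GTPases, apolipoprotein L and neighbours only as listed or not. Gene order and names come from RefSeq (GRCh38.p14). Since the labels do not say that replicates were separate cultures, deposited p-values may measure technical spread only. Scripts used matplotlib 3.10.9, scipy 1.17.1, pandas 2.3.3 and numpy 2.4.6 under Python 3.11.15.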

Additional observations from a re-analysis of the deposited data

How the results depend on the processing

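With an FDR limit of 0.001, the counts of lower windows were 36 at 100 kb and 8 at 50 kb, against 56 and 28 as reported, and a limit of 0.05 gave 72 at 50 kb. Recentring with implied errors left 9 and 0, and implied errors without recentring left 17 at 50 kb. After recentring, 102 of the 226 windows of 50 kb were below 0 with an unadjusted p under 0.05, beside 7376 of all 178559 measured windows. The median change at 100 kb moved to -0.22 on recentring, where the shift common to all measured windows is taken out by construction. The other settings tried (adjustment over all sets together, a minimum concentration of 4 or none, windows overlapping the interval, single sets for the medians) kept counts within 1.5 times and medians within the implied standard error, and no setting turned the direction of a median. Recentring turned single windows, so that 1 of 109 lay above 0 at 100 kb (0 as deposited) and 23 of 226 at 50 kb (5 as deposited), 3 of them at HMOX1. Median or centred changes at the 10 genes stayed below 0 in every setting, from -0.71 to -0.14, with RASD2 lowest in each. Depth is unknown, and the implied error, 0.0922 at 100 kb and 0.134 at 50 kb in the median, limits what can be called. No paired analysis was possible because the tables hold 1 mean per treatment and no value per replicate; for the same reason no replicate could be left out.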
